A study of Mus musculus with 6 samples.

Results

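The 57 genes described here encode hnRNP proteins (19 genes, counted together with Pcbp1, Pcbp2, Ptbp1 and Syncrip), SR and SR-related proteins (13 genes, the Tra2 and Srrm genes included), components of the core spliceosome (18 genes) and associated RNA helicases and RNA-binding proteins (7 genes). They were taken from a list of mouse symbols, and all 57 had a row among the 23725 genes of the count table. The table came from 3T3-L1 cells, an established mouse embryonic fibroblast line, treated for 24 h either with extracellular vesicles (EVs) released by MLP29 cells, a mouse liver progenitor line, or with a control preparation. The EV group held 3 libraries, numbered 1, 2 and 4, and each plate received its own EV preparation in medium cleared of serum vesicles. The control group held 3 libraries, numbered 1, 2 and 3, from plates given a product of the same isolation procedure run on medium in which no cells had grown. No genetic change is named for either group, and a single cell line stood for fibroblasts in every plate.

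Introns are removed from pre-mRNA by the spliceosome, in which small nuclear ribonucleoproteins (snRNPs) recognise the splice sites and Prpf8, Snrnp200 and Eftud2 form the centre of the catalytic machine. SR proteins bind exonic sequences and generally favour the use of nearby splice sites. hnRNP proteins coat nascent RNA, often oppose SR proteins at splice sites, and also act in the export, stability and translation of mRNA. Many genes of these families control their own transcripts by alternative splicing.

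The libraries held between 508599 and 665465 counts. The kit kept the strand of the RNA, but the strand setting used for counting is not given in the sources used here, so each value below is the count listed under a gene and not a proven level of its mRNA. Had the counting used the opposite strand, a row would hold reads assigned to the other strand and need not follow its own gene's mRNA. In 10 of 13 pairs of a member and a gene overlapping it, described below, the gene on the opposite strand had the higher mean count. Which strand was counted was not tested. Words such as lower, fell and rose refer to these listed counts. Of the fibroblast markers, all 10 had counts in every library, whereas Adipoq and Plin1, markers of mature adipocytes, and Alb, Afp, Krt8, Krt18, Krt19 and Epcam, markers of the liver lineage, were at 0 in every library. Counts were scaled by TMM and tested with edgeR's quasi-likelihood test, in which 22.1% of the 5066 genes tested passed an adjusted p of 0.05, 14.4% with lower and 7.68% with higher counts in EV libraries. With scaling by library totals alone, the split moved from 732 lower and 389 higher genes to 970 lower and 90 higher, and the median log2 fold change of all genes tested moved from 0.01 to -0.12.

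Most of the listed splicing genes that changed had lower counts after EVs. Of the 57 genes, 56 had enough counts to be tested, and 20 of them (35.7%) fell after EV treatment, against 14.4% of all genes tested. Only Hnrnpa2b1 rose, and 35 did not pass the threshold. The log2 fold change was below 0 for 47 of the 56, against 48.8% of all genes tested, and its median was -0.41, against 0.01 over all genes. Normalized CPM, the counts scaled to a common library size, did not overlap between the groups for 24 genes that were lower and 1 gene (Sfpq) that was higher in EV libraries, where 21.5% and 17.9% of all genes tested did so. Whether these shares differ from those of all genes was not tested. The list was chosen with earlier results of these data known. Among 66 further tested genes of the same machinery, 15.2% fell.

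Of the core spliceosome genes, 8 of 17 tested fell, with a median log2 fold change of -0.64. The SR genes had 4 of 13 lower and a median of -0.54. Among the hnRNP genes 6 of 19 fell and 1 rose, with a median of -0.17, and among the associated genes 2 of 7 fell, with a median of -0.18. Over all genes tested in the same fit, 14.4% fell, 7.68% rose and the median was 0.01. The differences between the classes were not tested, and the order of their shares was not stable. In the DESeq2 Wald test 2 of 17 core, 3 of 13 SR, 2 of 19 hnRNP and 2 of 7 associated genes fell, and without control library 2 these counts were 3, 3, 2 and 2. Over all genes tested, 5.76% fell in the Wald test, and calls in either direction went from 1121 to 489 without control library 2. The classes were also not alike in level, as the hnRNP genes had a median of 151 normalized CPM, against 45.5 for the SR genes and 41.2 for the core genes.

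**Figure D1:**
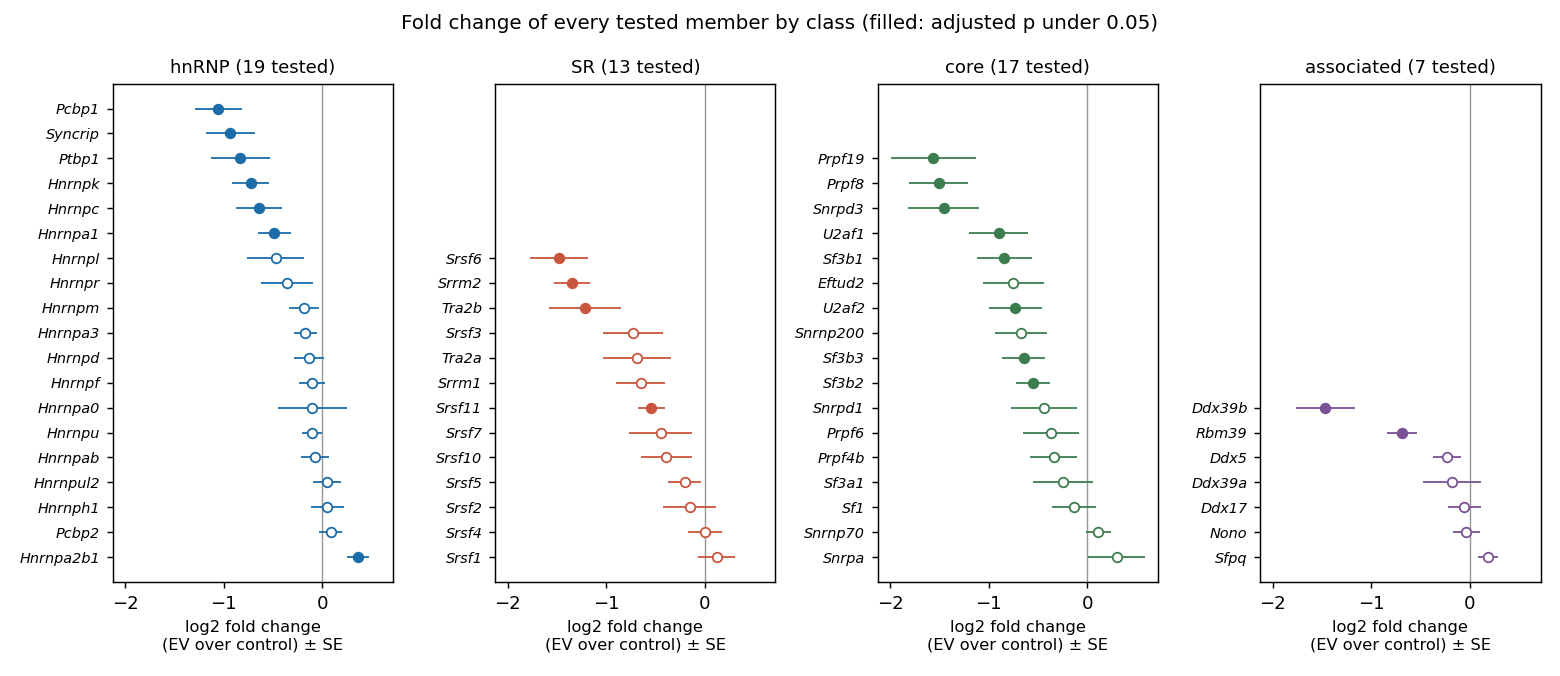
Log2 fold change (EV over control, horizontal axis) with its standard error for each of the 56 genes tested, in 4 panels by class; filled points passed an adjusted p of 0.05. Filled points lie left of 0 in every panel, except that of Hnrnpa2b1 at 0.36.

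Among the hnRNP genes, the strongest decrease by adjusted p was that of Pcbp1, an intronless gene whose product binds poly(C) stretches in RNA. Pcbp1 (chromosome 6, 86524480 to 86526189, GRCm38) had 39, 52 and 43 counts in control libraries 1, 2 and 3, and 15, 23 and 18 in EV libraries 1, 2 and 4. Every EV library lay below every control library. The level was 74.6 ± 8.97 normalized CPM (SD, n = 3) in controls and 35.6 ± 4.50 (SD, n = 3) after EVs, and the log2 fold change was -1.05 ± 0.24 (SE; adjusted p = 0.000984, edgeR's quasi-likelihood test). Its relative Pcbp2, which binds the same kind of RNA, had 215, 264 and 368 counts in controls and 192, 299 and 289 after EVs, so that the groups overlapped. The log2 fold change of Pcbp2 was 0.08, with a 95% interval from -0.16 to 0.32 that does not reach the interval of Pcbp1 (-1.53 to -0.57). The difference between these genes was not itself tested. On the opposite strand, Map3k12 overlaps 30.2% of the exon length of Pcbp2, and 1600020E01Rik overlaps 4.1% of that of Pcbp1.

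Hnrnpk, which binds C-rich RNA and DNA, and Syncrip, an RNA-binding protein of the hnRNP Q type, followed. The control libraries held 66, 82 and 71 counts of Hnrnpk and the EV libraries 36, 42 and 37, without overlap (log2 fold change -0.73 ± 0.18 SE, adjusted p = 0.00335, edgeR). For Syncrip the counts were 34, 49 and 36 against 16, 18 and 20, again without overlap (log2 fold change -0.93 ± 0.25 SE, adjusted p = 0.00487, edgeR). The call for Syncrip was lost in the DESeq2 Wald test and without control library 2. Ptbp1, the polypyrimidine tract-binding repressor of exons, Hnrnpc, a packaging protein of nascent RNA, and Hnrnpa1, a splicing repressor, also fell, with log2 fold changes of -0.83, -0.64 and -0.49. Hnrnpc, whose protein is among those listed by the study, had 45, 59 and 36 counts in controls and 23, 33 and 22 after EVs, and the groups overlapped once normalized. These 3 calls were close to the threshold (adjusted p = 0.0364, 0.0356 and 0.0298, edgeR), and they did not hold in the DESeq2 Wald test or without control library 2.

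Hnrnpa2b1, which packages RNA and sorts certain RNAs to granules, was the exception. Its counts were 373, 360 and 320 in controls and 324, 492 and 372 after EVs. Since the libraries differ in size, the normalized level was 591 ± 94.5 CPM (SD, n = 3) against 755 ± 97.9 (SD, n = 3), and the groups overlapped. The log2 fold change was 0.36 ± 0.11 SE (adjusted p = 0.0119, edgeR). This call was lost with total library size as the scaling and with at least 10 counts required in every library. It was also lost with the replicate number as a block, and when control library 2, control library 3 or EV library 2 was left out. Hnrnpu, a nuclear scaffold protein, had the highest control mean of the class, with 316, 400 and 396 counts in controls and 244, 355 and 303 after EVs, and did not pass the test (log2 fold change -0.10, 95% interval -0.31 to 0.10). Hnrnpm, a splicing regulator whose protein is among those listed by the study, had 125, 134 and 102 counts against 70, 115 and 92, with a log2 fold change of -0.19 (95% interval -0.49 to 0.12). The remaining 9 hnRNP genes that did not pass had log2 fold changes between -0.47 (Hnrnpl) and 0.05 (Hnrnph1).

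Of the SR genes, Srrm2 showed the lowest adjusted p of all 57. It encodes a large scaffold protein of the spliceosome and of nuclear speckles. Its row (chromosome 17) held 95, 133 and 97 counts in controls and 26, 40 and 45 after EVs, and the lowest control library lay above the highest EV library. From 181 ± 32.7 normalized CPM (SD, n = 3) the level fell to 70.6 ± 15.7 (SD, n = 3), a log2 fold change of -1.35 ± 0.18 SE (adjusted p = 8.55e-08, edgeR). Srsf6, a classical SR protein, fell by 1.48 on the log2 scale (± 0.29 SE, adjusted p = 0.000169, edgeR). Its counts were 43, 43 and 27 against 10, 18 and 7, and did not overlap.

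Srsf11, a splicing regulator of the SR family with the highest level among the SR genes, changed less. It had 132, 182 and 169 counts in controls and 78, 98 and 112 after EVs (log2 fold change -0.54 ± 0.14 SE, adjusted p = 0.00345, edgeR). Its call was lost without a filter on low counts and in a fit of only those genes that no other gene overlaps on the opposite strand. Tra2b, an activator of exons that contain GAA repeats, had 15, 23 and 16 counts against 7, 6 and 7 (log2 fold change -1.22 ± 0.37 SE, adjusted p = 0.0128, edgeR). The call was lost in the DESeq2 Wald test, without a filter, and without control library 2 or EV library 2. Its paralog Tra2a had 17, 16 and 19 counts against 5, 14 and 9, and its log2 fold change of -0.69 did not pass the test (adjusted p = 0.14, edgeR). The intervals of the pair overlap widely (-1.95 to -0.48 for Tra2b and -1.37 to 0.00 for Tra2a). Not all SR genes were lower, as Srsf1, the founding member of the family, had 51, 56 and 61 counts in controls and 32, 60 and 67 after EVs (log2 fold change 0.12, 95% interval -0.26 to 0.50). The other 7 SR genes, none of which passed the test, lay between -0.73 (Srsf3) and 0.00 (Srsf4).

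**Figure D2:**
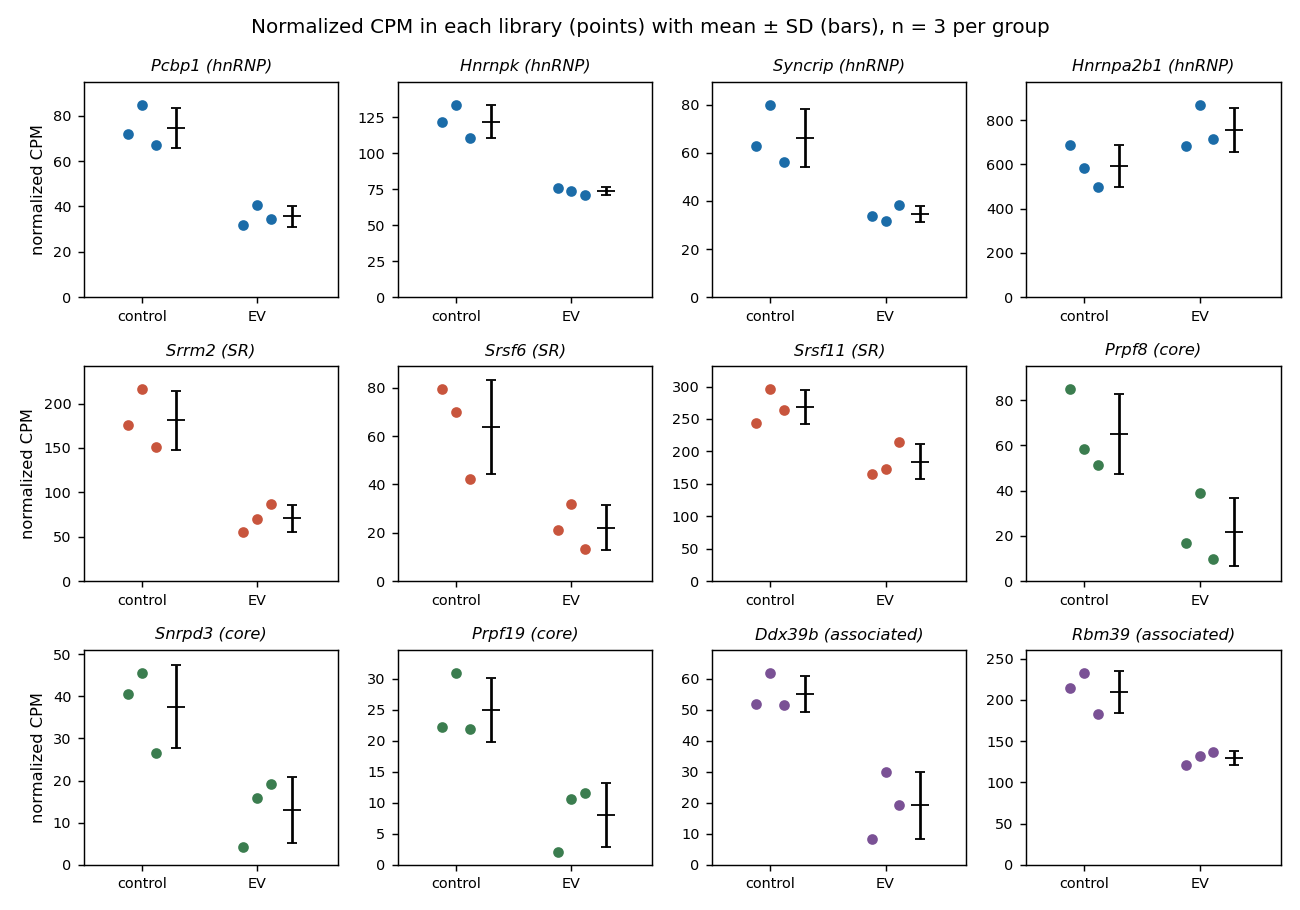
Normalized CPM (vertical axis, from 0) in each control and EV library for the 12 genes named by lowest adjusted p in their class, with mean and SD as bars (n = 3 per group). The groups are apart in every panel but that of Hnrnpa2b1, the only gene with a higher EV mean.

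In the core spliceosome the decrease was found in several of its parts. Prpf8, the scaffold at the catalytic centre, had 46, 36 and 33 counts in controls and 8, 22 and 5 in EV libraries 1, 2 and 4. The EV libraries varied among themselves, with EV library 2 the highest, but none reached the lowest control. The log2 fold change was -1.51 ± 0.30 SE (adjusted p = 0.000193, edgeR). Snrpd3, a protein of the Sm ring that all major snRNPs share, had 22, 28 and 17 counts against 2, 9 and 10 (log2 fold change -1.46 ± 0.36 SE, adjusted p = 0.00268, edgeR). Prpf19, a ubiquitin ligase that activates the spliceosome, had 12, 19 and 14 counts against 1, 6 and 6, the lowest level of the 56 genes tested, and fell by 1.56 on the log2 scale (± 0.43 SE, adjusted p = 0.00664, edgeR). The call for Prpf19 was lost in the DESeq2 Wald test, without control library 2 and without EV library 1.

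Genes for branch point and 3′ splice site recognition also fell. Sf3b1, Sf3b2 and Sf3b3, of the complex that binds the branch point, had log2 fold changes of -0.84, -0.56 and -0.65. U2af1 and U2af2, the small and large subunits of the factor that reads the 3′ splice site, both fell. U2af1 had 33, 24 and 29 counts in controls and 6, 15 and 19 after EVs (log2 fold change -0.90 ± 0.30 SE, adjusted p = 0.0226, edgeR). For U2af2 the counts were 27, 33 and 45 against 7, 26 and 22 (log2 fold change -0.73 ± 0.27 SE, adjusted p = 0.043, edgeR). EV library 1 held the fewest counts of the subunits, and without it neither call was kept. The call for U2af2 was lost in 9 of 12 alternatives. None of the calls for these 5 genes held in the DESeq2 Wald test or without a filter on low counts. Sf1, which binds the branch point first, had a log2 fold change of -0.14 (95% interval -0.59 to 0.31), and Sf3a1 one of -0.25 (95% interval -0.85 to 0.36).

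Eftud2, the GTPase of the catalytic centre, whose protein is among those listed by the study, had 22, 22 and 22 counts in controls and 9, 15 and 10 after EVs. The groups did not overlap, but the log2 fold change of -0.75 ± 0.31 SE did not pass the threshold (adjusted p = 0.0685, edgeR). The RNA helicase Snrnp200 stood near it as well (log2 fold change -0.67, adjusted p = 0.0551, edgeR). Snrpb, another Sm protein, was the only gene too low for the test, with 9, 16 and 14 counts in controls and 3, 5 and 0 after EVs. Snrnp70 and Snrpa, particular to the snRNP that reads the 5′ splice site, did not pass the test. Snrnp70, the most abundant of the core genes in this table, had 195, 224 and 189 counts against 135, 217 and 222 (log2 fold change 0.11, 95% interval -0.14 to 0.36), and Snrpa had a log2 fold change of 0.30 (95% interval -0.28 to 0.88).

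The associated genes were split. Ddx39b, an RNA helicase that acts in spliceosome assembly and mRNA export, had 28, 38 and 33 counts in controls and 4, 17 and 10 after EVs. The groups were apart, and the level fell from 55.0 ± 5.87 to 19.2 ± 10.7 normalized CPM (SD, n = 3 each), a log2 fold change of -1.46 ± 0.30 SE (adjusted p = 0.000306, edgeR). Its close paralog Ddx39a, whose protein is among those listed by the study, had 17, 26 and 17 counts against 14, 16 and 16 (log2 fold change -0.18, 95% interval -0.77 to 0.41). The 95% interval of Ddx39b (-2.07 to -0.86) lies below that of Ddx39a, but the difference was not itself tested. On the opposite strand, Adgre5 overlaps 17.4% of the exon length of Ddx39a, and no annotated gene overlaps the exons of Ddx39b. Per kilobase of exon, the control level of Ddx39b (14.5 normalized CPM per kb) was above that of Ddx39a (6.48), whereas after EVs the levels were 5.07 and 5.72.

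Rbm39, a splicing coactivator related to the U2AF large subunit, had 116, 143 and 117 counts against 57, 75 and 71, without overlap (log2 fold change -0.69 ± 0.15 SE, adjusted p = 0.00073, edgeR). The helicase pair Ddx5 and Ddx17 did not pass. Ddx5 had 124, 146 and 119 counts in controls and 89, 109 and 91 after EVs (log2 fold change -0.23, 95% interval -0.51 to 0.06), and Ddx17 had 61, 74 and 79 against 52, 71 and 56 (log2 fold change -0.06, 95% interval -0.40 to 0.28). Sfpq and Nono, partners in paraspeckles, did not pass either. Sfpq held the highest level per kilobase of the 57 genes, 145 normalized CPM per kb in controls and 165 after EVs. Its counts were 356, 408 and 475 against 359, 432 and 433, which did not overlap once normalized (log2 fold change 0.19 ± 0.10 SE, adjusted p = 0.162, edgeR). Nono had 125, 121 and 130 counts against 92, 126 and 102 (log2 fold change -0.03, 95% interval -0.31 to 0.24).

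The classes were also summed over their genes. The SR genes summed to 1148 ± 87.7 normalized CPM (SD, n = 3) in controls and 806 ± 86.5 (SD, n = 3) after EVs, a ratio of 0.702, and the ratio was 0.756 for the core genes, where EV library 1 was the lowest with 727 normalized CPM. No EV library reached a control library in these sums. For the hnRNP genes the ratio was 0.946 (4051 ± 158 against 3831 ± 392 normalized CPM, SD, n = 3 each), and EV library 2 was above every control library. The associated genes had a ratio of 0.956 with no overlap between the groups. Together the 57 genes made up 0.729% to 0.825% of the counts in controls and 0.586% to 0.683% after EVs. EV library 1 was the lowest of the EV libraries for 36 of the 57 genes.

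**Figure D3:**
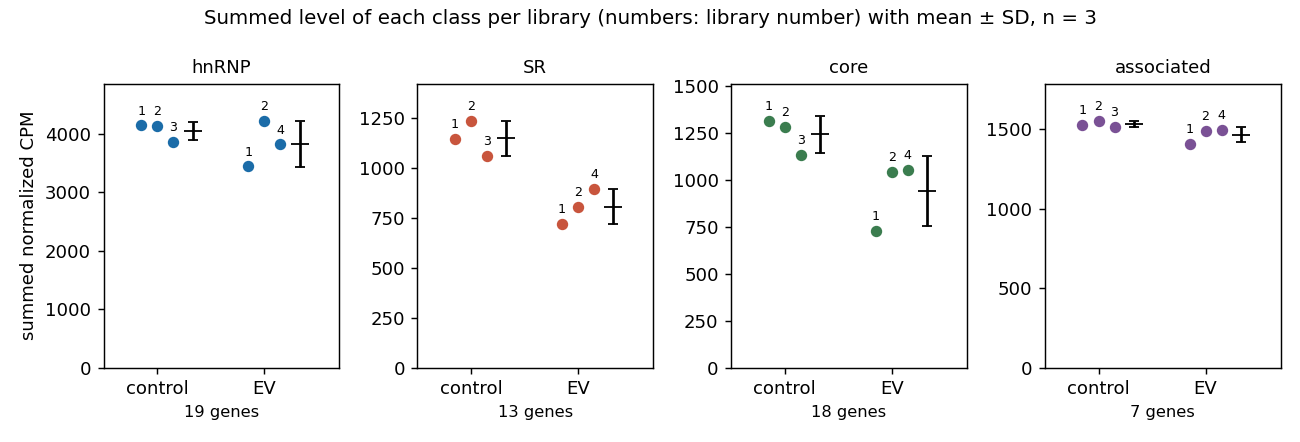
Summed normalized CPM of each class (vertical axis, from 0) in every library, with the library number above each point and the mean and SD as bars (n = 3). SR and core sums separate the groups (ratios 0.702 and 0.756), and hnRNP sums overlap (ratio 0.946).

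The fold change went with the level at which a gene was counted. Among the 34 tested members with a mean under 100 normalized CPM, 15 fell and the median log2 fold change was -0.66, while over all genes in this range 16.2% fell and the median was -0.16. Among the 22 with a mean of at least 100, 5 fell and Hnrnpa2b1 rose, and the median was -0.10, against 10.5% lower and a median of 0.20 over all such genes. Spearman's rho between log2 fold change and mean level was 0.544 over the 56 genes and 0.341 over the 5066 genes tested, both across genes, which share libraries and are not independent replicates. Within the hnRNP class, 5 of the 8 genes under 100 normalized CPM fell (median -0.68), and 1 of the 11 above it fell (median -0.10). The split at 100 was chosen after the values were seen, and the part of level in the class medians was not tested.

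**Figure D4:**
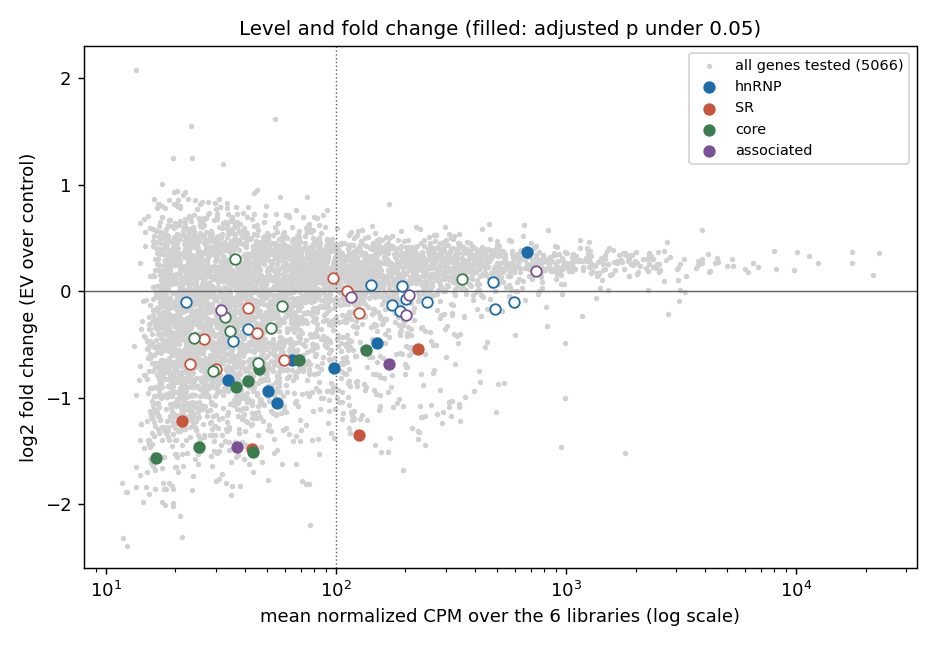
Mean normalized CPM over the 6 libraries (horizontal axis, log scale) against log2 fold change (vertical axis) for the 5066 genes tested (grey) and the 56 splicing genes (coloured by class, filled where the adjusted p was under 0.05). The dotted line marks 100 normalized CPM, left of which 15 of the 20 decreases lie.

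Some of the 57 genes share exon sequence with a gene read from the other strand. In the GENCODE vM21 annotation this holds for 23 genes, in 28 pairs, and 13 of these pairs have both genes in the count table. In 10 of the 13 pairs the partner had the higher mean count. Srsf2 was listed with 17 to 33 counts in a library, and Mettl23, which shares 460 bases of exon with it, with 2043 to 2728. Pcbp2 had between 192 and 368, and Map3k12 between 4689 and 6185. Of the 11 partners with enough counts, 10 had a log2 fold change above 0 and Phykpl, the partner of Hnrnpab, rose (0.24, adjusted p = 0.0247, edgeR). Over all genes tested, 2592 of 5066 were above 0 and 7.68% rose. Above 0 were 1299 of the 2066 tested genes with such an overlap, and 1182 of the 1562 with a mean of at least 100 normalized CPM. Among the genes named above, Ptbp1 had between 10 and 31 counts against 1308 to 1743 for Plppr3. Snrpd3 had between 2 and 28 against 230 to 337 for Gucd1, and Hnrnpk between 36 and 82 against 129 to 214 for Rmi1. For Sf3b3 it was between 21 and 54 against 92 to 144 for Cog4. Ddx39a had between 14 and 26 against 49 to 81 for Adgre5, and Snrpa between 13 and 26 against 101 to 155 for BC024978. Hnrnpu had between 244 and 400 against 230 to 315 for Cox20, and Ddx17 between 52 and 79 against 3 to 6 for Kdelr3. Srrm2 shares only 4 bases of exon with Elob, which had between 1 and 14 counts. Pcbp1 is overlapped by 1600020E01Rik over 4.10% of its exon length.

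Members both with and without such an overlap included genes that fell. Of the 33 tested members with no such overlap, 13 fell and 1 rose, with a median log2 fold change of -0.48, and over all genes without overlap 19.9% fell, with a median of -0.21. Of the 23 with overlap, 7 fell, with a median of -0.18, and over all genes with overlap 9.49% fell, with a median of 0.13. When only genes without overlap were fitted, 7 of the 33 fell, Hnrnpa2b1 and Sfpq rose, and 12.2% of all genes fell. From which strand the reads in these rows came was not tested, and the absence of an annotated overlap does not show it.

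**Figure D5:**
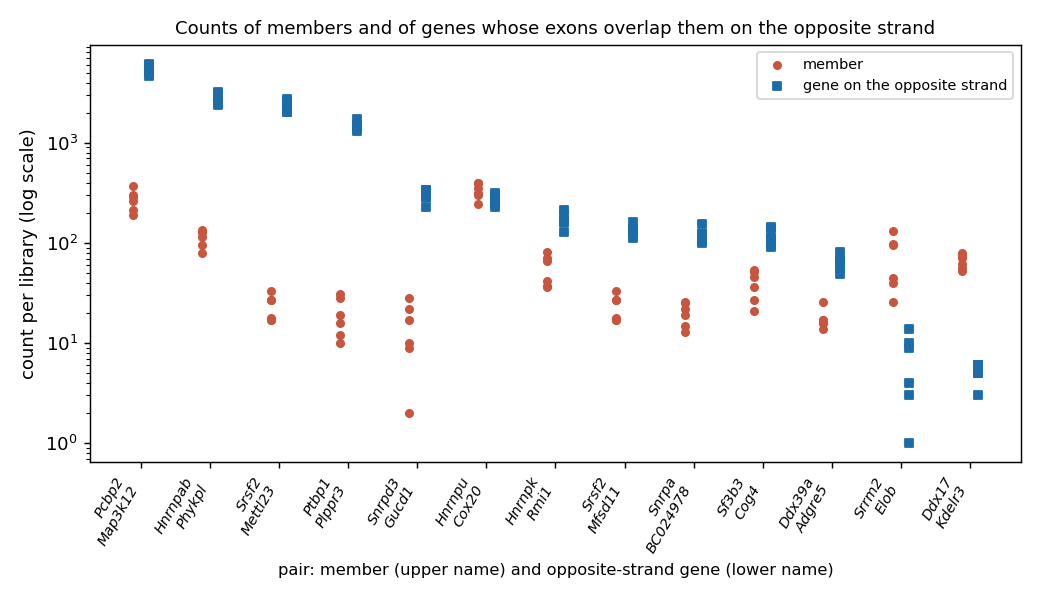
Counts per library (vertical axis, log scale) of members (circles) and of the genes that overlap their exons on the opposite strand (squares), for the 13 pairs in the count table, with 6 libraries as points for each gene. Squares lie above circles for 10 pairs by mean count, most for Srsf2 and Mettl23.

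Near-identical copies limit some rows as well. For 25 of the 57 genes, a transcript matched an annotated pseudogene over at least 100 bases at 95% identity or more. Hnrnpa3 had 35 such matches, Hnrnpa1 10 and Tra2b 5, and the counts under these genes are uncertain in that reads may have been split between copies or dropped.

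Other gene groups moved along with the splicing genes. The summed cytosolic ribosomal protein genes made up 1.24% to 1.54% of the counts in controls and 0.547% to 0.740% after EVs. Of the fibroblast markers 7 of 10 fell, against 14.4% of all genes tested. All 10 had a negative log2 fold change, against 48.8% of all genes tested. These markers made up 0.232% to 0.278% of the counts in controls and 0.0965% to 0.120% after EVs. The 12 liver progenitor markers summed to between 10 and 13 counts per library, most of them from Sox9. In bulk RNA of a single cell line, fewer cells in a given state and less RNA per cell cannot be told apart. The part of these groups in the values of the splicing genes was not tested.

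Beyond the 57, a further 111 genes of the same machinery were examined, of which 66 were tested. Of these 10 fell and 1 rose (15.2% lower, against 14.4% of all genes tested), with a median log2 fold change of -0.26. The lowest adjusted p among those that fell were those of Cdc5l, a partner of Prpf19, Raly, an hnRNP C relative, and Hnrnpdl, an hnRNP D relative. Cdc5l had 13, 21 and 19 counts in controls and 4, 5 and 4 after EVs (log2 fold change -1.80 ± 0.40 SE, adjusted p = 0.000873, edgeR). Raly had 37, 42 and 34 against 6, 17 and 20 (log2 fold change -1.19), and Hnrnpdl 43, 69 and 44 against 14, 30 and 26 (log2 fold change -0.95), so that the groups were apart for each. Prpf39, a protein that helps the snRNP of the 5′ splice site to bind, rose, with 935, 1011 and 1217 counts in controls and 1018, 1354 and 1171 after EVs (log2 fold change 0.36 ± 0.09 SE, adjusted p = 0.00156, edgeR). It is overlapped by Fkbp3 on the opposite strand. Tardbp, a relative of the hnRNPs, had 52, 66 and 71 counts against 44, 67 and 56 (log2 fold change 0.02, 95% interval -0.33 to 0.38). Eif4a3, of the exon junction complex, had 5, 18 and 15 counts against 3, 8 and 6 and was too low for the test.

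The promoters of the genes were read from RefSeq (GRCm38.p6), which held 51 of the 57. The 250 bases before the start site were searched on both strands for 7 motifs, overlapping matches included, and each share is given for the 51 genes, for the genes tested and for all 27025 promoters of the table. The core of ETS sites, spelled CCGGAA, was present in 47.1%, 22.6% and 12.3% of them. The CCAAT box was present in 52.9%, 35.9% and 34.5%. For the GC box, spelled GGGCGG, the shares were 64.7%, 57.3% and 33%, and for the TATA box, with the letters TATAAA, they were 9.80%, 6.49% and 13.0%. The E-box, searched for as CACGTG, was found in 9.80%, 8.66% and 6.04%. The core of NRF1 sites, GCGCATGC, was found in 9.80%, 4.48% and 2.31%, and the cyclic AMP response element, TGACGTCA, in 3.92%, 2.29% and 1.60%. Of the 19 promoters of genes that fell, 42.1% held a GC box, 57.9% a CCAAT box and 36.8% an ETS core. Of the 31 of genes that did not pass, these shares were 80.6%, 48.4% and 51.6%. No test was made of these shares or of their bearing on the listed counts. A match is a string of letters and not a shown binding site. The promoters of Pcbp1, Prpf8 and Ddx39b, with the lowest adjusted p of their classes, of Srsf6, with the second lowest of the SR genes, and of Hnrnpa2b1 are given 5′ to 3′ in the direction of the gene, with capitals for matches to the CCAAT box, the GC box or the ETS core on either strand.
Prpf8, chr11:75486527-75486776, plus strand: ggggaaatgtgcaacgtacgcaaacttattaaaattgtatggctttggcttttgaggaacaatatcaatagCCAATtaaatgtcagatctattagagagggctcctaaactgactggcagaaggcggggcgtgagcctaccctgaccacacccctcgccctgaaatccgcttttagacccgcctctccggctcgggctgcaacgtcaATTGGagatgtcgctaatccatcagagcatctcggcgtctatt
Srsf6, chr2:162931258-162931507, plus strand: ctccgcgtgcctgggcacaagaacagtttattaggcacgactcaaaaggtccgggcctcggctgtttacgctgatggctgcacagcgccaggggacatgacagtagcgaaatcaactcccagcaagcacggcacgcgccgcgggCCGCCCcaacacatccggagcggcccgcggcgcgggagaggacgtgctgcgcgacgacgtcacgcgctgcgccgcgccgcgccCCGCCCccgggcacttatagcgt
Pcbp1, chr6:86526190-86526439, minus strand: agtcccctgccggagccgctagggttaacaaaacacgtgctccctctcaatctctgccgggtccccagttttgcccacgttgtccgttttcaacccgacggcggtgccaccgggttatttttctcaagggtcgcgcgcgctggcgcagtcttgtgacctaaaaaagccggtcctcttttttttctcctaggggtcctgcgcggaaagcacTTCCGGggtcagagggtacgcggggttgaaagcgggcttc
Ddx39b, chr17:35241496-35241745, plus strand: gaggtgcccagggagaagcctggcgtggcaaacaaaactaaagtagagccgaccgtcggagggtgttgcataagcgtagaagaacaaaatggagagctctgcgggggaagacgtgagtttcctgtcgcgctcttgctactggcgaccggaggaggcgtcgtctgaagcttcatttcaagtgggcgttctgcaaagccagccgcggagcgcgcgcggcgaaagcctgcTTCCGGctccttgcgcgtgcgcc
Hnrnpa2b1, chr6:51469895-51470144, minus strand: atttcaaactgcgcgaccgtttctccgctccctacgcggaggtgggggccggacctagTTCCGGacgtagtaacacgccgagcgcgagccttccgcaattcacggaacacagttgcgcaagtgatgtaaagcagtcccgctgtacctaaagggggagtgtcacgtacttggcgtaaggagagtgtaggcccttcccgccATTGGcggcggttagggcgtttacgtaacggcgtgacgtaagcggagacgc
Prpf8 thus holds CCAAT boxes, Srsf6 GC boxes, Pcbp1 and Ddx39b an ETS core each, and Hnrnpa2b1 an ETS core and a CCAAT box. The RefSeq start of Hnrnpa2b1 lies 154 bases from the 5′ end of the gene in the annotation, and those of the other 4 lie at it. The promoter of Srrm2, the SR gene with the lowest adjusted p, is not shown because its RefSeq start lies 12660 bases from the 5′ end of the gene, and it holds none of the 3 marked motifs. No motif among these is held by all 4 of the genes that fell.

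The number of calls was sensitive to single libraries. Without control library 2 only 10 of the 57 genes passed, all lower, and without EV library 1 the count was 14. Calls over all genes tested, in either direction, also went from 1121 in the main analysis to 489 without control library 2. The DESeq2 Wald test called 9 lower and Hnrnpa2b1 higher, and 5.76% of all genes lower. The 8 genes Hnrnpk, Pcbp1, Srrm2, Srsf6, Prpf8, Snrpd3, Ddx39b and Rbm39 passed in every alternative they entered, but only Rbm39 entered all 13. Srsf6, Prpf8, Snrpd3 and Ddx39b had too few counts in an EV library for the filter of at least 10 in every library, and Hnrnpk, Pcbp1, Srrm2 and Snrpd3 were not in the fit of genes without opposite-strand overlap.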

How the data were processed

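RNA of the 3T3-L1 cells of 6 plates was sequenced with a kit that keeps its strand. Per the study's methods, the authors checked reads with FastQC, mapped them to mm10 (GRCm38) with STAR and tabulated them with Rsubread. They deposited the raw counts of each gene by Entrez identifier, without normalization. The submitters' processing notes also name DESeq2. Versions, annotation and strand setting are not given in the sources used here. Symbols and coordinates came from RefSeq (99.8% of identifiers) and exon overlaps from GENCODE vM21 (88.7%), both of GRCm38.

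In R 4.3.3, edgeR 4.0.16 was used for the filter (filterByExpr), the TMM scaling and the quasi-likelihood test (glmQLFit, glmQLFTest, no covariates), with Benjamini-Hochberg adjustment over all 5066 genes tested. Standard errors are the log2 fold change over the square root of F. Normalized CPM use the TMM factors. Between 508599 and 665465 counts per library limit precision, and genes that filterByExpr removed were given no fold change. The fits were also run on simulated counts, in which only genes above a minimum mean count were changed. That run therefore does not cover genes with few counts.

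The members, classes and lists were chosen with earlier results of these data known. Values per library were given for the 3 genes with the lowest adjusted p per class and direction among those past the threshold, the most abundant of each class, Pcbp2, Ddx39a, Hnrnpm, Hnrnpc and Eftud2, whose proteins the study lists, 6 paralog or partner pairs, and, outside the members, by the same ranking plus Tardbp and Eif4a3. Further genes were named after their values were seen. Replicates came from separate plates and preparations, and every replicate pair differed by more than sampling noise (chi-square per degree of freedom 1.20 to 1.95). The alternatives were DESeq2's size factors, total library size, the Wald test of DESeq2 1.42.0, 2 other filters, the replicate number as a block, only genes without opposite-strand overlap, and each library left out in turn.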

Additional observations from a re-analysis of the deposited data

How the results depend on the processing

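The median log2 fold change of the 56 genes stayed below 0 under every alternative run, but counts of calls depended on the fit. The number of genes called, 1121 in the main analysis, was 512 in the DESeq2 Wald test, 632 with at least 10 counts in every library, 541 in the fit of genes without opposite-strand overlap, and between 489 (without control library 2) and 1215 with a library left out. The number of members called, 21 in the main analysis, was 10 in the Wald test, 12 without a filter (11 of the 21, and Snrpb), 9 of 33 without overlap (8 of the 21, and Sfpq), and 10 to 20 with a library left out. The members' median was -0.55 with total library size and from -0.57 to -0.26 with a library left out. The hnRNP calls, 7 in the main analysis, numbered 3 in the Wald test, 4 without a filter, 2 without overlap and 2 to 6 with a library left out, and the hnRNP median was 0.0075 over the 9 genes without overlap. The SR calls were 2 without a filter and 2 without overlap. The core calls, 8 in the main analysis, were 2 in the Wald test, 4 without a filter, 4 with at least 10 counts, 2 without overlap and 3 to 8 with a library left out. The associated calls were 1 with at least 10 counts. The other splicing genes had 17 calls with total library size, 4 in the Wald test, 6 without a filter, 4 without overlap and 7 to 14 with a library left out, against 11. Where a filter or the overlap was changed, other genes were tested, and the other causes were not tested.

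Replicate numbers 1 and 2 occur in each group, but no label ties them, and samples with the same number deviated together only weakly (correlations 0.0691 and 0.0608, against -0.0425 and -0.0968 for samples of different number). With the number as a block, 1119 genes and 20 members passed, all 20 lower, with Hnrnpa2b1 and U2af2 lost and Srrm1 gained, and the members' median was -0.62.

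Sign changes occurred only for genes that did not pass the test. With total library size the log2 fold change was -0.084 for Hnrnph1, -0.092 for Hnrnpul2, -0.051 for Pcbp2, -0.018 for Srsf1, -0.13 for Srsf4, -0.028 for Snrnp70 and -0.11 for Tardbp. With at least 10 counts it was -0.030 for Hnrnph1, -0.038 for Hnrnpul2, -0.080 for Srsf4 and -0.060 for Tardbp. Without a filter it was 0.013 for Hnrnpab, 0.030 for Ddx17 and 0.052 for Nono. Without overlap it was 0.074 for Hnrnpa0, 0.0075 for Hnrnpa3 and 0.14 for Nono. With the replicate block it was -0.077 for Srsf1, -0.11 for Snrnp70 and 0.015 for Ddx17. With a library left out the ranges were -0.42 to 0.23 for Hnrnpa0, -0.22 to 0.063 for Hnrnpab, -0.14 to 0.21 for Hnrnph1, -0.17 to 0.0060 for Hnrnpu, -0.059 to 0.13 for Hnrnpul2, -0.040 to 0.24 for Pcbp2, -0.043 to 0.36 for Srsf1, -0.44 to 0.0014 for Srsf2, -0.16 to 0.10 for Srsf4, -0.44 to 0.082 for Sf3a1, -0.016 to 0.29 for Snrnp70, -0.12 to 0.030 for Ddx17, -0.11 to 0.039 for Nono and -0.058 to 0.14 for Tardbp. At 508599 to 665465 counts a library, genes such as Prpf19 and Snrpb rest on few counts.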
